A study of Mus musculus with 40 samples.

Results

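Lx elements are LINE-1 retrotransposons of a rodent group older than the L1MdA, L1MdTf and L1MdGf families that still move in mice. They were taken here as every copy in the deposited table of transposable element (TE) copies whose name starts with Lx, which gave 344085 of 3799629 copies. In the multimapped table they were the 21 of 1243 TE families whose name starts with Lx and whose class is LINE. Of the copies, 108890 overlapped the span of an annotated gene (47.9 Mb, "inside"), 39881 lay within 5 kb of one (18.4 Mb) and 195314 lay at least 5 kb from any gene (93.0 Mb, "outside"). Uniquely mapped reads, which align to a single place, were found in at least 1 of 40 libraries for 56835 copies inside genes and 34447 outside.

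Total RNA had been sequenced after ribosomal RNA depletion from feeder-free XY mouse embryonic stem cells (mES cells) in naive pluripotency, held in 2i and LIF, and from epiblast-like cells (EpiLCs) made from them with FGF at 20 ng/mL and activin A at 12 ng/mL. Both were harvested at 48 h. Each stage held 8 wild-type (WT) libraries and 4 each of LBRKO, TKO and QKO cells. LBRKO cells carry frameshift mutations in Lbr, TKO cells lack the lamin genes Lmna, Lmnb1 and Lmnb2, and QKO cells lack these lamins and carry 1 frameshift and 1 in-frame deletion in Lbr. Lamins and the lamin B receptor LBR sit at the inner nuclear membrane and bind peripheral heterochromatin, and the comparisons ask what happens to RNA when they are lost. QKO was a single surviving clone made from TKO, and which clone each LBRKO library came from is not in the labels. By the study's methods TKO cells carried trisomy 8 with loss of Y in part of the cells, and part of the WT cells had lost Y or carried trisomies 6 and 8. Mutant groups were compared with the same WT libraries, and p-values measure the spread between libraries, since nothing says that they came from separate derivations.

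A LINE-1 element copies itself through an RNA made from its own 5′ promoter, and most copies are cut short at the 5′ end during insertion, so an old family is mainly a collection of fragments. Such fragments are also read as passengers of introns, of long non-coding transcripts and of readthrough from other elements, and a read count does not separate these sources. In mES cells LINE-1 elements are held down by H3K9 methylation and, after differentiation, by DNA methylation of CpG sites.

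The Lx sequence itself carries this age. Lx copies had 4.28 CpG dinucleotides per kb (3.96 outside and 4.88 inside genes), against 11.2 per kb in L1MdA, L1MdTf and L1MdGf copies over 3000 bases. The longest run of codons without a stop was taken over the frames of the element strand, with no start codon required. Among 2026 Lx copies over 3000 bases, this run had a median of 129 codons, and 11 copies (0.543%) held one of at least 1000 codons. Among 13098 young copies the median was 677.5 codons and 4187 copies (32.0%) did. The 5′ 200 bases of 6 outside copies that the results turn on are given here from GRCm39, the build of the files, 5′ to 3′ on the strand of the element, with each CpG in capitals. The first 4 were higher in QKO cells, the fifth was lower in TKO and QKO cells and the sixth was read in mES cells but scarcely in EpiLCs.
Lx_dup837 (chr1:122850053-122850252, minus strand): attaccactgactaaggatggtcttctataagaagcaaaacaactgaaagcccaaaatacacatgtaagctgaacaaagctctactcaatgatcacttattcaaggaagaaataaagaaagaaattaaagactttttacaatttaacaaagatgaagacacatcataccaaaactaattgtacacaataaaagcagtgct
Lx8b_dup18775 (chr12:35847250-35847449, minus strand): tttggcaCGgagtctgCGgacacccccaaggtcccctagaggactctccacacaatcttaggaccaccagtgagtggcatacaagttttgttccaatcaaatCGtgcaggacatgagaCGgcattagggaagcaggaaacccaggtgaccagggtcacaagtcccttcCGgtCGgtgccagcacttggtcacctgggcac
Lx3_Mus_dup8731 (chr13:62024580-62024779, minus strand): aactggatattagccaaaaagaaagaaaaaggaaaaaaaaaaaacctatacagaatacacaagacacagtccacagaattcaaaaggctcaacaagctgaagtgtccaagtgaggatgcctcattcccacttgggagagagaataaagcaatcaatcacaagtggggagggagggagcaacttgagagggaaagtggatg
Lx5_dup12296 (chr12:109762903-109763102, minus strand): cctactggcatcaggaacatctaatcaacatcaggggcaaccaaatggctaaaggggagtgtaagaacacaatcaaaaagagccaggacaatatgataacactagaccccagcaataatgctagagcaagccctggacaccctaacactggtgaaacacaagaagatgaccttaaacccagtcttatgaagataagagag
Lx3A_dup2281 (chr5:60104985-60105184, plus strand): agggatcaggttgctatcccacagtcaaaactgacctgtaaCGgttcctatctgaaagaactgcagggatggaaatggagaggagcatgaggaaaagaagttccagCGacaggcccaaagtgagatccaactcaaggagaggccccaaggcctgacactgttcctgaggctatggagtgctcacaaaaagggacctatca
Lx7_dup16038 (chr9:86608780-86608979, plus strand): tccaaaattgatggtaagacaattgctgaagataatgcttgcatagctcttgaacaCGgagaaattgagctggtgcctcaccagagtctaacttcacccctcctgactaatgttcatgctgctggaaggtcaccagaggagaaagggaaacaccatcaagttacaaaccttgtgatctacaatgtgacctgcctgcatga

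Lmnb1 and Lmnb2 matched the labels at both stages, and Lmna did so less clearly in EpiLCs. In mES cells Lmnb1 stood at 481 to 546 CPM (counts scaled to a library of 1000000 gene counts) in WT libraries, 8.26 to 8.82 in TKO and 12.0 to 15.5 in QKO, and in EpiLCs at 499 to 547, 0.535 to 1.17 and 1.64 to 2.09. Lmnb2 stood at 93.2 to 116, 3.96 to 4.71 and 2.11 to 3.77 CPM in WT, TKO and QKO mES cells and at 89.8 to 102, 1.68 to 3.37 and 1.02 to 1.79 CPM in EpiLCs. Lmna stood at 45.1 to 71.5, 14.1 to 17.0 and 17.1 to 21.0 CPM in mES cells, and at 9.28 to 13.0, 7.36 to 8.34 and 6.95 to 9.43 CPM in EpiLCs, where QKO overlapped WT. The Lbr alleles are small indels, so Lbr RNA is no check of the labels. Its level in LBRKO fell into pairs, since replicates 1 to 4 gave 274, 253, 145 and 162 CPM in mES cells and 403, 392, 196 and 233 CPM in EpiLCs, against 347 to 407 and 364 to 513 CPM in WT. Library depth, the sum of gene counts, was 22.6 to 48.9 times 1000000, and Lx copies took 67261 to 302660 counts, or 2.28% to 3.86% of the TE counts. Depth went with genotype. In mES cells it was 27.7 to 33.1 in WT replicates 1 to 4, 27.1 to 33.6 in TKO and 24.5 to 30.6 in QKO. It was 39.4 to 46.6 in WT replicates 5 to 8 and 39.7 to 48.0 in LBRKO. EpiLCs split the same way, at 25.4 to 33.5, 22.6 to 33.2 and 25.3 to 33.0 against 44.4 to 48.9 and 40.8 to 48.1. Naive pluripotency markers summed to 3430 to 4855 CPM in mES cells and 104 to 295 CPM in EpiLCs, and fibroblast markers to 2.47 to 6.66 and 9.89 to 24.1 CPM. WT replicate 7 was the highest WT library in Lx reads at both stages, and LBRKO replicate 3 the highest LBRKO library in EpiLCs, with 5456 CPM inside genes against 2491 to 3406 CPM in the other LBRKO EpiLC libraries. Results are given without them where that changes them. These libraries stood out by their Lx reads. Leaving out WT replicate 7 therefore raises mutant differences from WT in Lx sums, and leaving out LBRKO replicate 3 lowers those of LBRKO EpiLCs. In bulk RNA, fewer cells of a kind and less RNA per cell cannot be told apart.

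Lx RNA from outside genes rose about 3-fold in QKO mES cells and rose less in TKO mES cells. The summed outside level was 190 to 389 CPM in the 8 WT mES libraries (median 223), 231 to 318 CPM in LBRKO, 377 to 451 CPM in TKO and 643 to 884 CPM in QKO. Every QKO library lay above every WT and TKO library, and TKO overlapped WT only through WT replicate 7, at 389 CPM. On the log2 scale QKO exceeded WT by 1.64 ± 0.15 (SE; two-sided exact permutation over libraries, p = 0.00202, the smallest that 4 against 8 libraries allow, adjusted p = 0.00661 over 36 tests). TKO exceeded WT by 0.78 ± 0.13 (exact p = 0.00404, adjusted p = 0.0112). QKO exceeded TKO by 0.86 ± 0.11 (exact p = 0.0286, the smallest that 4 against 4 libraries allow, adjusted p = 0.0447). LBRKO differed from WT by 0.22 ± 0.15 (adjusted p = 0.301, exact permutation), which became 0.33 (adjusted p = 0.0242, exact permutation) without both WT replicates 7.

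In EpiLCs only the QKO comparisons of this outside sum passed the test. WT EpiLCs held 184 to 316 CPM (median 233), LBRKO 200 to 432, TKO 223 to 264 and QKO 527 to 577 CPM. QKO libraries did not overlap any other group, while LBRKO spanned the WT range and beyond because its replicate 3 stood at 432 CPM. QKO exceeded WT by 1.24 ± 0.09 (adjusted p = 0.00661, exact permutation) and TKO by 1.13 ± 0.06 (adjusted p = 0.0447, exact permutation). The TKO and LBRKO differences from WT were 0.10 ± 0.11 and 0.21 ± 0.27 (adjusted p = 0.498 and 0.420, exact permutation). WT cells of the 2 stages differed by -0.01 ± 0.14 (adjusted p = 0.952, exact permutation).

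**Figure D1:**
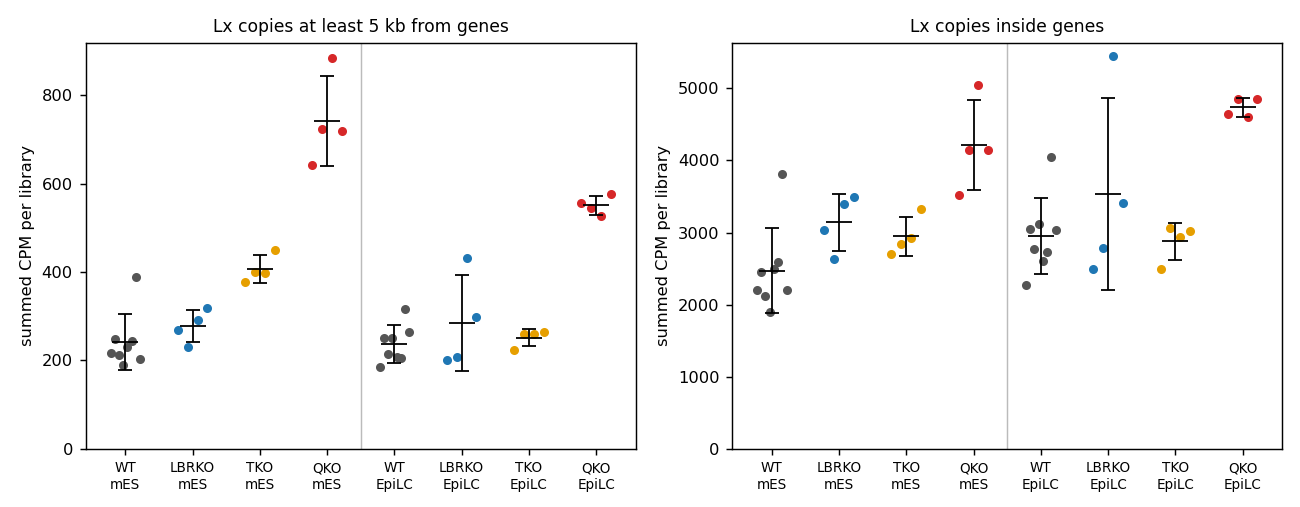
Summed CPM of uniquely mapped reads on Lx copies at least 5 kb from genes (left) and inside genes (right), 1 point per library, with the group mean and SD in black. QKO libraries lie at 643 to 884 CPM outside genes in mES cells and 527 to 577 CPM in EpiLCs, above every other group of their stage.

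Lx RNA inside genes was about 10 times as abundant and changed less. The inside sum was 1902 to 3807 CPM in WT mES libraries (median 2328), 2627 to 3499 in LBRKO, 2703 to 3330 in TKO and 3521 to 5045 CPM in QKO. Only WT replicate 7, at 3807 CPM, reached into the QKO range. QKO exceeded WT by 0.79 ± 0.15 in mES cells (adjusted p = 0.0112, exact permutation) and by 0.70 ± 0.09 in EpiLCs (adjusted p = 0.00661, exact permutation). It exceeded TKO by 0.51 ± 0.12 and 0.72 ± 0.07 (adjusted p = 0.0447 for both, exact permutation). The mES value was 0.42 to 0.57 (adjusted p = 0.0894, exact permutation) without QKO replicate 3 or any 1 TKO library. TKO and LBRKO mES cells differed from WT by 0.28 ± 0.12 and 0.37 ± 0.14 (adjusted p = 0.151 and 0.0909, exact permutation). Without both WT replicates 7 the differences were 0.37 and 0.46 (adjusted p = 0.0136 and 0.00779, exact permutation).

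Dividing the outside by the inside sum within a library removes the scaling between libraries. The outside sum was 9.18% to 10.2% of the inside sum in WT mES cells, 8.60% to 9.08% in LBRKO, 13.5% to 14.1% in TKO and 17.3% to 18.3% in QKO, with no overlap between any of these 4 groups. In EpiLCs it was 7.56% to 8.71% in WT, 7.47% to 8.78% in LBRKO, 8.47% to 8.94% in TKO and 11.3% to 12.0% in QKO. The log2 ratio rose by 0.85 ± 0.03 in QKO mES cells, 0.50 ± 0.03 in TKO mES cells and 0.54 ± 0.03 in QKO EpiLCs (adjusted p = 0.00661 for each, exact permutation), and by 0.13 ± 0.03 in TKO EpiLCs (adjusted p = 0.0194, exact permutation). It fell by 0.14 ± 0.03 in LBRKO mES cells (adjusted p = 0.0156, exact permutation) and by 0.28 ± 0.03 from WT mES cells to WT EpiLCs (adjusted p = 0.0028, exact permutation).

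L2 and MIR elements, far older LINE and SINE fragments, served as a measure of reads outside genes in general, and they moved with Lx. Outside L2 and MIR copies summed to 78.7 to 142 CPM in WT mES cells, 120 to 140 in TKO and 193 to 239 CPM in QKO. Lx over L2 and MIR was 2.38 to 2.75 in WT mES cells, 3.04 to 3.22 in TKO and 3.34 to 3.70 in QKO. The excess of Lx over this background was 0.30 ± 0.03 in TKO and 0.44 ± 0.05 in QKO on the log2 scale (adjusted p = 0.00661 for both, exact permutation). In EpiLCs the excess was 0.19 ± 0.05 in TKO (adjusted p = 0.00661, exact permutation) and 0.12 ± 0.05 in QKO (adjusted p = 0.0364, exact permutation). Without QKO replicate 1, 2 or 4 the QKO EpiLC value was 0.091, 0.13 and 0.11 (adjusted p = 0.101, 0.0569 and 0.0759, exact permutation). QKO against TKO gave -0.07 ± 0.06 (adjusted p = 0.377, exact permutation). Counted only at least 50 kb from genes, the excess was 0.18 in TKO mES cells and 0.09 in QKO mES cells (adjusted p = 0.0982 and 0.358, exact permutation). At that distance QKO against TKO in mES cells turned from 0.13 to -0.08 (adjusted p = 0.405, exact permutation).

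**Figure D2:**
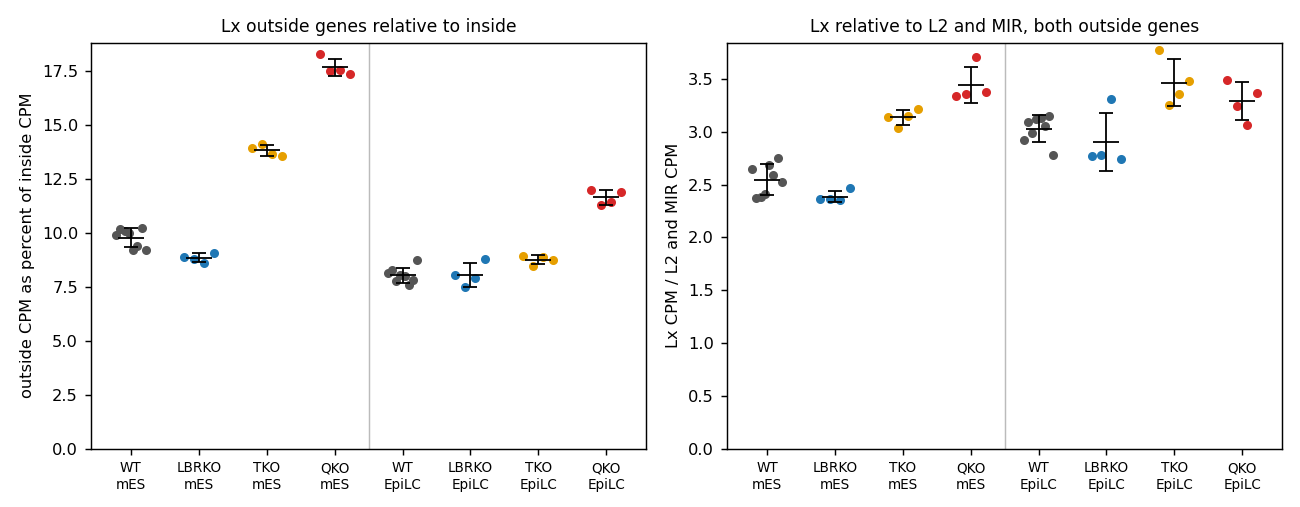
The outside Lx sum as a percent of the inside sum (left) and the outside Lx sum over the outside L2 and MIR sum (right), 1 point per library, with group mean and SD. On the left the 4 mES groups do not overlap, from 8.60% to 9.08% in LBRKO to 17.3% to 18.3% in QKO.

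The young LINE-1 families rose more than Lx in TKO and QKO cells relative to WT. Outside copies of L1MdA, L1MdTf and L1MdGf summed to 295 to 609 CPM in WT mES cells, 1055 to 1257 in TKO and 1738 to 1844 CPM in QKO. The log2 ratio of Lx to these copies fell by 0.77 ± 0.13 in TKO mES cells (adjusted p = 0.00909 over 9 comparisons, exact permutation), by 0.50 ± 0.15 in QKO mES cells (adjusted p = 0.0303, exact permutation). It fell by 0.55 ± 0.11 in TKO EpiLCs (adjusted p = 0.0121, exact permutation) and by 0.47 ± 0.10 in QKO EpiLCs (adjusted p = 0.0136, exact permutation). In LBRKO mES cells it rose by 0.44 ± 0.13 (adjusted p = 0.0303, exact permutation), and from WT mES cells to WT EpiLCs it fell by 0.60 ± 0.14 (adjusted p = 0.00909, exact permutation). QKO against TKO gave 0.28 ± 0.13 in mES cells and 0.08 ± 0.08 in EpiLCs, and LBRKO EpiLCs gave 0.05 ± 0.14 against WT, none of which passed the test (adjusted p = 0.110, 0.450 and 0.752, exact permutation).

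In mES cells Lx reads thinned out with distance from genes, and the QKO mean relative to WT was higher in each farther class. Per Mb of Lx sequence, WT mES cells gave 51.6 CPM inside genes, 14.4 within 5 kb, 3.52 at 5 to 50 kb, 1.18 at 50 to 200 kb and 0.504 beyond 200 kb. The classes on either side of the 5 kb limit thus stood at 14.4 and 3.52 CPM per Mb. WT EpiLCs gave 61.7, 15.3, 3.38, 1.19 and 1.35 CPM per Mb in the same 5 classes, with no further fall beyond 200 kb. The QKO mean was 1.71, 2.2, 3.00, 3.49 and 3.70 times the WT mean in these 5 classes in mES cells, and 1.6, 1.96, 2.28, 2.55 and 2.10 times in EpiLCs. L2 and MIR gave 1.16, 1.70, 2.16, 3.13 and 4.38 times in QKO mES cells. The ratio of Lx copies at least 50 kb from genes to those at 5 to 50 kb was higher by 0.25 ± 0.05 (log2) in QKO than in WT mES cells (adjusted p = 0.00909 over 9 comparisons, exact permutation), and in QKO EpiLCs the difference was 0.11 ± 0.06 (adjusted p = 0.211, exact permutation).

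**Figure D3:**
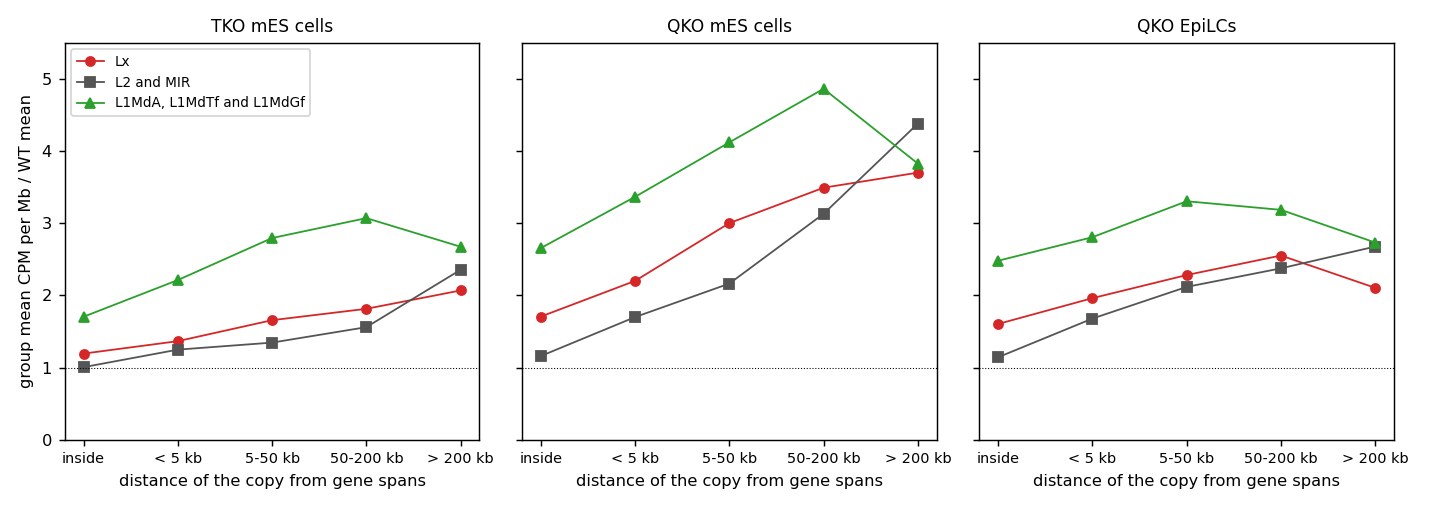
Group mean CPM per Mb divided by the WT mean of the same stage (1 is no change), by distance of the copy from gene spans, for Lx, for L2 and MIR, and for L1MdA, L1MdTf and L1MdGf. In QKO mES cells the Lx values run from 1.71 inside genes to 3.70 beyond 200 kb, between the other 2 sets out to 200 kb.

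Long Lx copies rose more than short ones in QKO mES cells, where a few copies held most of the long-copy reads. Outside copies of over 3000 bases (1232, of which 553 had a read) gave 6.72 times the WT mES mean per Mb in QKO, against 2.83 times for copies of up to 500 bases. The log2 ratio of long to short copies was higher by 1.34 ± 0.17 in QKO mES cells, by 0.90 ± 0.25 in TKO mES cells and by 0.68 ± 0.07 in QKO EpiLCs (adjusted p = 0.00455, 0.0109 and 0.00455, exact permutation). The 10 long copies with most reads held 62.8% of the long-copy CPM in QKO mES cells, with 20.7% on Lx5_dup12296 alone. Without those 10 the QKO difference was 0.47 ± 0.18 in mES cells and 0.12 ± 0.07 in EpiLCs (adjusted p = 0.168 and 0.258, exact permutation), and that of TKO in mES cells was -0.0065 ± 0.19 (adjusted p = 0.986, exact permutation). These copies were picked for their reads, so leaving them out lowers the difference of a group where they are high, whatever the other long copies do. The rise from WT mES cells to WT EpiLCs, 0.75 ± 0.16 with them and 0.89 ± 0.18 without, passed the test both ways (adjusted p = 0.0014, exact permutation).

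Inside genes, intronic Lx rose more than exonic Lx. In QKO mES cells intronic copies stood at 1.86 times the WT mean per Mb. Copies on the strand of the host gene and on the opposite strand rose alike, from 28.9 to 53.6 and from 44.3 to 82.6 CPM per Mb. The log2 ratio of exonic to intronic CPM per Mb fell by 0.58 ± 0.13 in QKO mES cells and by 0.75 ± 0.09 in QKO EpiLCs (adjusted p = 0.0182 for both, exact permutation).

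By family, the rise in QKO cells took in all 21 Lx families. In the multimapped counts, which share reads among copies, the family log2 fold changes had a median of 0.94 (0.70 to 1.28) in QKO mES cells and 0.92 (0.68 to 1.33) in QKO EpiLCs, against medians of 0.82 and 0.85 over all 1142 families tested. All 21 were higher at an adjusted p of 0.05 (edgeR quasi-likelihood) at both stages, as were 81.1% and 83.9% of all families. The families above 2-fold numbered 6 and 3 (25.1% and 26% of all families tested). The mES count was 2 without QKO replicate 3 and 12 without QKO replicate 1, and under other settings it ran from 1 (WT replicates 5 to 8 alone) to 19 (gene-row TMM factors), with the EpiLC count from 0 (unique reads) to 17. Lx8, the family with most reads, was at 418 to 849 CPM in WT mES cells (median 499) and 809 to 1180 CPM in QKO, with overlap through the highest WT library. Lx2A1 had the highest QKO mES fold, from 7.05 to 14.0 CPM in WT (median 9) to 19.0 to 28.9 CPM, a log2 change of 1.28 ± 0.15 (adjusted p = 7.8e-09, edgeR). In TKO the medians were 0.34 in mES cells and 0.06 in EpiLCs, with 6 and 0 families past the adjusted p (17% and 3.85% of all families) and 0 called above 2-fold (2.1% and 0.701% of all families; also 0 by unadjusted p and by DESeq2). In LBRKO they were 0.28 and 0.34, with 1 family past it at each stage (6.92% and 11.2%) and 0 above 2-fold (0.525% and 0.876%; also 0 by unadjusted p and by DESeq2). Without LBRKO replicate 3 the EpiLC median was 0.04. QKO against TKO gave 0.64 and 0.87, with 20 and 21 families past it (53.2% and 77.9%) and 0 and 2 above 2-fold (4.47% and 21.8%), the latter 1 without QKO replicate 4.

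Splitting the uniquely mapped reads of each family by location separated the 2 kinds of change. Outside genes, all 21 families were above 2-fold in QKO mES cells (80% of 796 families tested), with log2 changes of 1.38 in Lx2 to 2.47 in Lx2A1, and 19 of 21 were in QKO EpiLCs (63.2%). Lx2A (0.70 ± 0.27) and Lx3A (0.66 ± 0.13) were the 2 outside families below 2-fold in QKO EpiLCs. In TKO mES cells 2 of 21 were above 2-fold (11.9%), Lx2A1 at 1.38 ± 0.22 and Lx4A at 1.04 ± 0.19, and in TKO EpiLCs none was (2.39%). Inside genes no Lx family passed 2-fold in any of the 9 comparisons (edgeR). Of 1136 families tested, 13.5% and 13% did in QKO mES cells and EpiLCs, 3.52% and 13.8% in QKO against TKO, 1.23% and 0.352% in TKO, 0.792% and 0.616% in LBRKO and 4.05% between the WT stages. The inside Lx values ran from 0.55 to 0.97 in QKO mES cells.

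**Figure D4:**
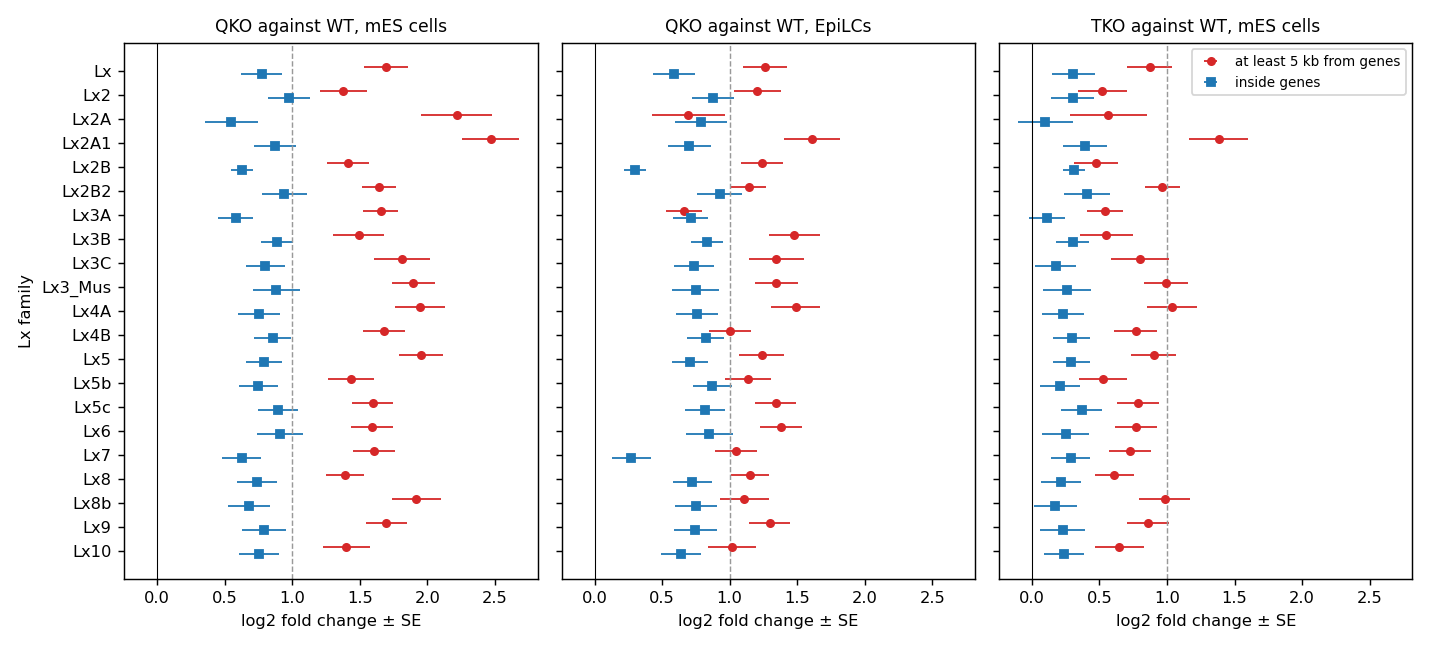
log2 fold change ± SE (edgeR) of uniquely mapped reads summed over each Lx family outside genes (red circles) and inside genes (blue squares); the dashed line is 2-fold. In QKO mES cells all 21 outside values lie above the line and all 21 inside values below it.

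For Lx outside genes, the QKO change exceeded the sum of the LBRKO and TKO changes. The excess of the outside sum was 0.67 ± 0.23 on the log2 scale in mES cells and 0.87 ± 0.24 in EpiLCs (edgeR interaction term, adjusted p = 0.0426 and 0.00525). For the inside Lx sum it was 0.17 ± 0.23 and 0.46 ± 0.23, which did not pass the test (adjusted p = 0.716 and 0.142, edgeR). For outside L2 and MIR it was 0.43 ± 0.21 and 0.90 ± 0.21 (adjusted p = 0.167 and 0.00118, edgeR). The TKO change of the outside Lx sum was smaller in EpiLCs than in mES cells by 0.66 ± 0.22 (adjusted p = 0.0504, edgeR), and that of QKO by 0.40 ± 0.22 (adjusted p = 0.184, edgeR).

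Single copies were tested where enough reads allowed, which was 6170 Lx copies, 5162 inside and 486 outside genes; a copy silent in WT entered the test only through the group that read it. In QKO mES cells 277 of 486 outside copies were called higher (adjusted p under 0.05 and over 2-fold, edgeR), against 55.4% of the 7903 outside TE copies tested, and 1131 of 5162 inside, against 21% of all inside copies tested. In QKO EpiLCs the counts were 242 outside (49.1% of all outside copies) and 1529 inside (27%). In TKO they were 99 and 76 in mES cells (21.6% and 1.87%) and 28 and 24 in EpiLCs (11.6% and 1.11%). In LBRKO they were 3 and 24 in mES cells (0.367% and 0.389%) and 22 and 89 in EpiLCs (3.28% and 1%). QKO against TKO gave 26 and 58 in mES cells (5.23% and 0.95%) and 147 and 782 in EpiLCs (24.3% and 11.3%). As shares of the Lx copies tested, outside and inside, these were 57% and 21.9% in QKO mES cells, 49.8% and 29.6% in QKO EpiLCs, 20.4% and 1.47% in TKO mES cells and 5.76% and 0.465% in TKO EpiLCs. They were 0.617% and 0.465% in LBRKO mES cells and 4.53% and 1.72% in LBRKO EpiLCs, and for QKO against TKO 5.35% and 1.12% in mES cells and 30.2% and 15.1% in EpiLCs. In TKO EpiLCs both Lx shares were below those of all TE copies and for QKO against TKO in EpiLCs both were above, and these differences were not tested. Single libraries moved some inside counts, to 724 without QKO replicate 3 in QKO mES cells, 49 without TKO replicate 4 in TKO mES cells and 489 without TKO replicate 1 for QKO against TKO in EpiLCs. For QKO against TKO in mES cells the counts were 11 outside and 27 inside without QKO replicate 3, and 13 and 21 without TKO replicate 1. In LBRKO mES cells the inside count was 5 without LBRKO replicate 4 and 42 without LBRKO replicate 2. It was 230 against WT replicates 1 to 4 alone and 2 against WT replicates 5 to 8 alone, whose depth was nearer to that of LBRKO. The median log2 change of all 131824 TE copies tested was 0.77 in QKO mES cells and 0.81 in QKO EpiLCs while that of genes was 0.01 and -0.01, so the calls depend on the scale. With copies scaled to each other, 164 outside and 204 inside copies were called higher and 189 of all copies lower in QKO mES cells, and 151, 324 and 210 in QKO EpiLCs, where scaling to genes gave 64 and 44 lower calls.

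Calls of lower copies were fewer in QKO and TKO, at 64 and 28 of 6170 in mES cells (1.36% and 0.689% of all TE copies) and 44 and 18 in EpiLCs (1.4% and 0.557%). In LBRKO mES cells lower calls (29, against 0.457% of all TE copies) and higher calls (33, against 0.409%) were close in number. In LBRKO EpiLCs they were 8 (0.287%) and 119 (1.21%). Without LBRKO replicate 3 in EpiLCs the higher calls inside fell from 89 to 33 and outside from 22 to 11. From WT mES cells to WT EpiLCs 176 of 486 outside copies were called lower (29.1% of all outside copies) and 43 higher (16.2%), and 408 inside copies lower (8.04%) and 588 higher (10.4%).

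The called copies sat beside other changed sequence more often than Lx copies that were not called. The 277 outside copies called higher in QKO mES cells fell in 179 loci when those within 10 kb were joined, and 78% had another called TE copy within 5 kb, against 28.7% of the 209 outside copies tested and not called. Called copies of the same locus can count as neighbours of each other, which raises the first share. The nearest gene was itself called higher for 36.4% of the called copies where it was tested, against 8.28%. The 1131 inside copies called higher lay in 815 genes, of which the host was called higher for 15% of copies, against 1.04% of hosts of copies not called. None of these shares was counted over all TE copies. Of the outside calls in QKO, 171 were shared by both stages, 61.7% of those in mES cells and 70.7% of those in EpiLCs. With 57% and 49.8% of the 486 outside copies called in mES cells and EpiLCs, many would be shared in any case. This overlap was likewise not counted over all TE copies.

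Copy by copy, the highest folds were at loci with no read in WT. Lx_dup837, 3781 bases at chr1:122846472-122850252 and 51.0 kb from the nearest gene (Gm37970), had 0 counts in the 8 WT libraries of either stage. The 4 TKO mES libraries read 1.49, 1.75, 1.5 and 2.01 CPM, the QKO mES libraries 2.44, 1.65, 1.41 and 2.02 CPM and the QKO EpiLC libraries 2.92, 2.21, 2.26 and 2.21 CPM. TKO mES, QKO mES and QKO EpiLC levels were at least 165-fold, 184-fold and 237-fold above WT against a floor of 3 counts over the WT group. The fold of the adjoining Lx_dup838 was at least 75.2 in QKO mES cells. Lx8b_dup18775, 5635 bases at chr12:35841815-35847449, was at least 123-fold higher in QKO mES cells, where its libraries read 1.43, 1.07, 1.34 and 1.20 CPM. Both copies were read in TKO as well as QKO mES cells.

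Lx3_Mus_dup8731, 1150 bases at chr13:62023630-62024779, had 0 counts in WT mES cells and 0.845, 1.34, 1.49 and 1.10 CPM in QKO, at least 117-fold more. It lay 14.1 kb from the predicted gene Gm7240, which was higher in QKO mES cells by 7.22 on the log2 scale (adjusted p = 1.1e-27, edgeR). Lx3_Mus_dup1518, 1611 bases at chr3:6381347-6382957, was at least 76.2-fold higher in QKO mES cells and had a young L1MdGf_I copy within 5 kb that was also called higher, by 8.01 on the log2 scale (adjusted p = 5.5e-41, edgeR). These copies and their neighbours rose together.

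Other copies separated QKO from TKO or one stage from the other. Lx5_dup12296, 5478 bases at chr12:109757625-109763102, read 7.05, 4.98, 8.52 and 5.73 CPM in QKO mES cells, 0.429, 0.250, 0.619 and 0.658 in TKO and 0.0297 to 0.355 in WT, and no library of any EpiLC group exceeded 0.056 CPM. It rose by 3.73 ± 0.41 (log2) over TKO (adjusted p = 2.4e-10, edgeR), beside Lx8_dup41948, which rose by 3.47 ± 0.70 (adjusted p = 0.00168, edgeR). Copies of other families within 5 kb of Lx5_dup12296 rose over TKO too, such as L1M3_dup5402 by 3.97 (adjusted p = 0.000678, edgeR). Lx6_dup13882 there rose by 3.44 (adjusted p = 0.00748, edgeR), while MLTR11A_dup1553 did not pass, at 2.13 (adjusted p = 0.179, edgeR). Whether these copies are read as parts of a single transcript was not tested. Lx_dup12599, 5741 bases at chr13:86279613-86285353 and 84.6 kb from Cox7c, which encodes a cytochrome c oxidase subunit, was read in QKO EpiLCs at 1.33, 1.18, 1.47 and 1.43 CPM and in 1 of 4 QKO mES libraries at 0.153 CPM. With 3 counts in all WT EpiLC libraries its ratio to WT was 134 (95% counting interval 45.1 to 657). L1MdA_II_dup4277 within 5 kb of it was also higher in QKO EpiLCs, by 5.32 on the log2 scale (adjusted p = 2.7e-08, edgeR).

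A few copies fell. Lx3A_dup2281, 650 bases at chr5:60104985-60105634, read 0.314 to 0.841 CPM in WT mES cells and 0 in all 4 QKO mES libraries, at least 19.6-fold less, and its log2 change in QKO EpiLCs was -2.74 ± 0.40 (adjusted p = 7.58e-08, edgeR). It lay 5.22 kb from the predicted gene Gm43041, whose log2 change in QKO mES cells was -4.45 (adjusted p = 2.5e-21, edgeR). Between the WT stages Lx7_dup16038, 959 bases at chr9:86608780-86609738, read 0.714 to 1.38 CPM in mES cells and 0 in all 8 EpiLC libraries, at least 100-fold less. Lx2_dup8921, 389 bases at chrX:21801918-21802306, went the other way, from a single count in WT mES cells to 0.444 to 1.03 CPM in WT EpiLCs.

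**Figure D5:**
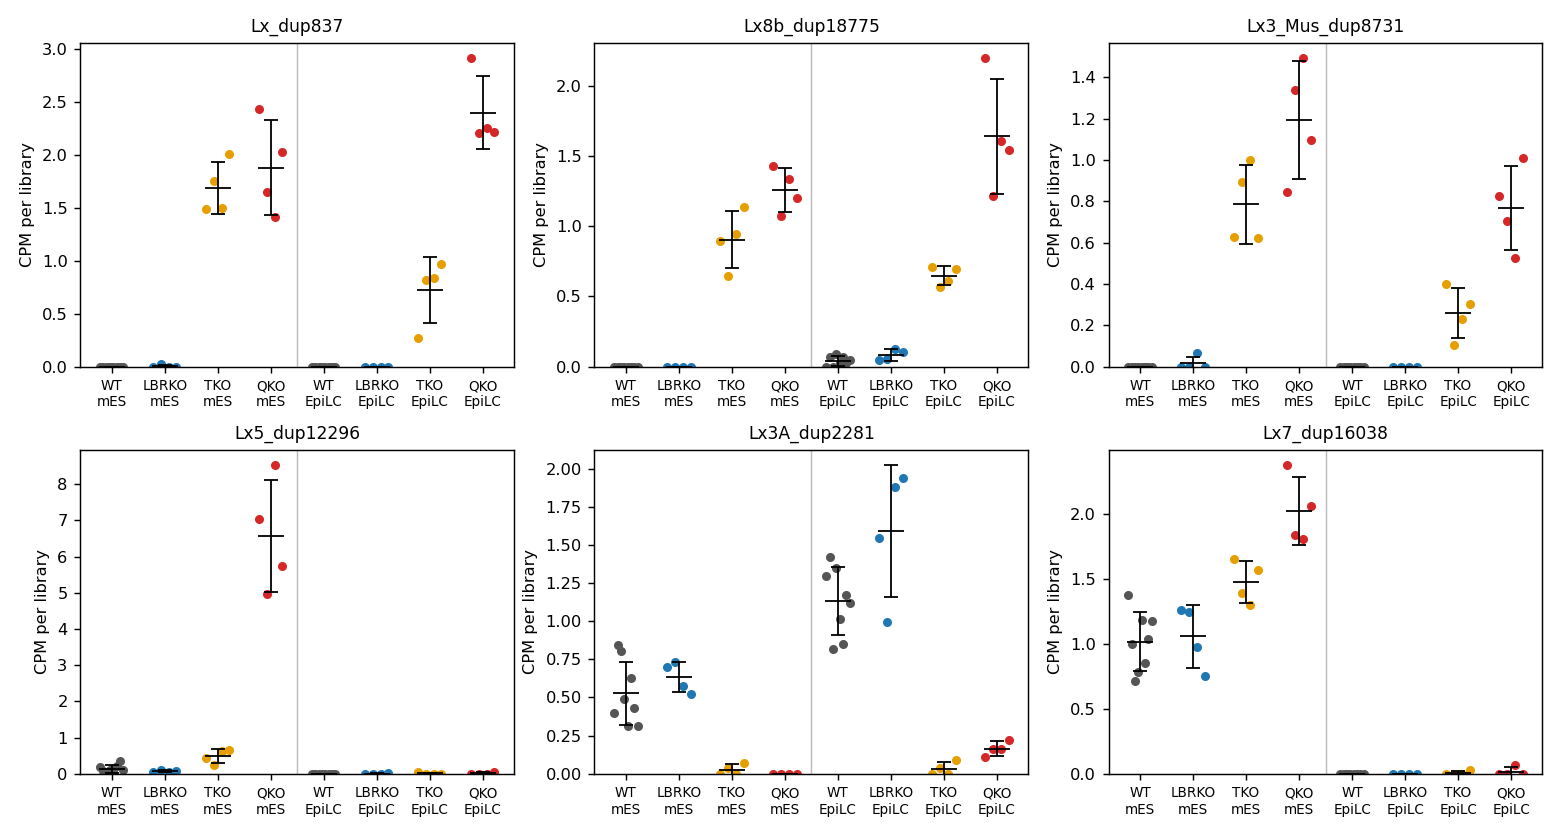
CPM of 6 outside Lx copies, 1 point per library, with group mean and SD. Lx_dup837, Lx8b_dup18775 and Lx3_Mus_dup8731 are read in TKO and QKO, Lx5_dup12296 stands at 4.98 to 8.52 CPM in QKO mES cells, Lx3A_dup2281 falls to 0 in QKO mES cells and Lx7_dup16038 is read in mES cells.

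Inside genes, Lx8_dup53530 in an intron of Dpy30, a subunit of H3K4 methyltransferase complexes, had 0 counts in WT and 0.195, 0.613, 0.589 and 0.892 CPM in QKO mES cells, at least 56-fold more. Dpy30 itself changed by -0.14 (adjusted p = 0.124, edgeR). Some TE copies within 5 kb rose too, B2_Mm1a_dup17135 by 8.41 and B2_Mm2_dup81753 by 3.92 (adjusted p = 2.7e-16 and 4.5e-06, edgeR). Others there did not pass, such as B1_Mus2_dup65466 at 0.70 (adjusted p = 0.475, edgeR). Lx8b_dup8485 in an intron of Pde1c, a calmodulin-dependent phosphodiesterase, was at least 66-fold higher in QKO mES cells, and Pde1c rose by 2.02 (adjusted p = 0.0141, edgeR). Lx8_dup24885 in an exon of Zfp617, a zinc finger gene, fell by 2.16 ± 0.28 (adjusted p = 2.54e-09, edgeR) while Zfp617 changed by -0.26 (adjusted p = 0.0175, edgeR). Lx2_dup10516 in Zfy1 on Y was higher in QKO EpiLCs, on a chromosome that part of the WT and TKO cells had lost.

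Of a list of 33 genes that act on LINE-1 silencing, 32 were tested, and 3 were called higher and 0 lower in QKO mES cells (10.6% and 6.66% of all genes, edgeR). These were Dnmt3l, a cofactor of de novo DNA methylation (2.28 on the log2 scale), Piwil2, a piRNA-pathway protein (1.81), and Zfp42, a naive pluripotency gene (1.03). The list median was -0.03 in QKO mES cells, beside 0.01 over all genes. In QKO EpiLCs 6 were called higher and 0 lower (13% and 8.16% of all genes). These were Dnmt3l (2.07), Morc1, a germline silencing ATPase (1.93), Tex19.2 (1.81), Tex19.1 (1.5), Piwil2 (1.39) and Zfp42 (1.26). Against TKO, 5 were called higher in QKO EpiLCs (9.97% of all genes), which were these without Piwil2. The list median in QKO EpiLCs against WT was -0.07, beside -0.01 over all genes. Members not called lower also fell, such as Dnmt3b from a mean of 3023 CPM in WT EpiLCs to 1693 in QKO EpiLCs. Smchd1 went from 252 to 173 CPM and Kdm1a from 259 to 178 CPM. In TKO mES cells Dnmt3l (1.32) and Piwil2 (1.12) were called higher (2.68% of all genes) and Tex19.2 lower (-1.25, against 3.77%). In LBRKO 1 was called higher in mES cells, Dnmt3l at 2.88 (3.06% of all genes), and 3 in EpiLCs, Dnmt3l (2.12), Morc1 (1.78) and Zfp42 (1.53), against 3.04%. TKO EpiLCs and QKO against TKO in mES cells gave 0 higher calls (1.44% and 4.09% of all genes, edgeR), also 0 with unadjusted p-values.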

How the data were processed

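RNA was sequenced from 40 libraries in 8 groups, and groups were taken from the sample labels. The authors deposited read counts: unique reads per gene, unique reads per TE copy, and a multimapped table of genes and TE families. Per the labels and the submitters' notes the tools were cutadapt 2.5, STAR 2.7.10a, SAMtools 1.10 and featureCounts 1.6.4 on GRCm39; how the counting treated strand is not given in the sources used here. Sense and antisense reads on a copy can therefore not be told apart. The members and gene lists were chosen with earlier results of these data known.

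Counts were filtered with filterByExpr (minimum count 10), scaled by TMM and tested with the edgeR 4.0.16 quasi-likelihood test in 1 model of 8 group means, with Benjamini-Hochberg adjustment over 23399 genes, 131824 TE copies or 26508 genes and families. Copies used the library sizes and TMM factors of the gene table. A call needs an adjusted p under 0.05 and over 2-fold. Sums and ratios were compared by two-sided exact permutation of libraries. The 4 main sums and ratios were adjusted together over 36 tests, and each other ratio over its own 9 comparisons. The ratio of Lx to young LINE-1 copies and the fit of families split by location were added after the data were seen. That fit also gave the interaction terms of the sums, and its p-values were adjusted over its genes and sums by location. Named copies were drawn from called copies with no overlap between the groups and a mean of at least 0.5 CPM in the higher one, by largest fold: outside genes up to 5 higher and 3 lower (QKO against WT and the WT stages) or 3 and 2 (other comparisons), and inside genes up to 3 and 2 (QKO against WT). Of these, some are described in the text. Bounds use a floor of 3 counts over the group, and intervals (95%) cover counting error only. R 4.3.3, limma 3.58.1, DESeq2 1.42.0 and GenomicRanges 1.54.1 were used. No column belonged to other samples (0). On simulated data for QKO against WT mES cells the test recovered 90% of 2-fold and 100% of 4-fold changes over 26508 genes and families, and 52% and 88% over 131824 TE copies, with 5% and 3.45% false calls. All simulated rows shared a fixed spread, and the changed rows had a mean of at least 10 counts. Recovery was scored by adjusted p and direction, without the 2-fold threshold. The rates hold for those settings and do not give the error rates of the calls made here. Alternatives were DESeq2, other scalings and filters, a replicate block, subsets of WT libraries, other distances and leaving out chromosomes or libraries.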

Additional observations from a re-analysis of the deposited data

Results flagged for a closer look

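A library far from the others of its group was looked for in each sum or ratio of each group, which gave 32 tests. Of these, 6 flagged one, where chance gives about 1 in 20 for independent tests. The sums and ratios of a library share reads, so the tests are not independent. WT mES replicate 7 stood at 389 CPM for outside and 3807 CPM for inside Lx copies, above the other 7 libraries. TKO EpiLC replicate 1 stood at 223 CPM outside genes, below the other 3. The ratio of outside Lx to L2 and MIR was 2.46 in LBRKO mES replicate 4, 3.70 in QKO mES replicate 3 and 3.31 in LBRKO EpiLC replicate 3, each above its group.

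The change from WT differed between the stages for some families and copies (edgeR interaction terms). Outside genes the TKO change was smaller in EpiLCs than in mES cells by a log2 difference of -1.22 for Lx2A1 (adjusted p = 0.0108, edgeR) and -1.12 for Lx4B (adjusted p = 0.00112, edgeR), and the QKO change of Lx2A differed by -1.52 (adjusted p = 0.00218, edgeR). Of all 796 TE families tested outside genes, 44 had such a smaller change at over 2-fold in TKO and 37 in QKO (edgeR). Among 6170 Lx copies tested, the EpiLC change was larger for 21 and smaller for 3 in LBRKO, larger for 2 and smaller for 4 in TKO, and larger for 88 and smaller for 32 in QKO. Shares over all TE copies are not given for these counts, so they are no result about Lx. The median stage differences in LBRKO, TKO and QKO were -0.02, -0.24 and 0.08 over these Lx copies. Over all TE copies tested they were -0.07, -0.15 and 0.05. The causes were not tested.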

How the results depend on the processing

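The outside QKO rises kept their direction under every alternative run. The cause of the moves given here was not tested. QKO family calls (6 in mES cells, 3 in EpiLCs) became 10 in mES cells with RLE factors, without a filter or with DESeq2, 19 and 17 with gene-row TMM, and 2 and 0 from unique reads (2 and 1 without chromosomes 6, 8, X and Y). QKO against TKO in EpiLCs (2 families) gave 12 with gene-row TMM, 1 without a filter and 0 from unique reads. With DESeq2 the inside copy calls were 100 for QKO against TKO in mES cells and 37 for TKO EpiLCs.

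Same-numbered libraries correlated between -0.39 and 0.552, and in 0 of 9 comparisons were all above 0.1. Between the WT stages the 8 values were all positive, from 0.0553 to 0.552. The rule cannot settle whether the numbers pair the samples, and the main tests took the libraries as unpaired. With the replicate block, QKO family calls were 14 in mES cells and 17 in EpiLCs. Copy calls under the block (outside, inside, lower) were 14, 208 and 45 in LBRKO mES cells, 41, 255 and 17 in LBRKO EpiLCs and 40, 128 and 8 for QKO against TKO in mES cells, with 16 lower in TKO mES cells.

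With WT replicates 1 to 4 alone, QKO families called were 18 and 13; LBRKO mES copies 17 outside and 230 inside; lower copies 10 in TKO mES, 41 in QKO mES, 14 in LBRKO EpiLCs and 422 between WT stages; TKO EpiLC copies 18 outside and 13 inside. The inside sums of LBRKO and TKO mES cells then passed (0.53 and 0.45, adjusted p = 0.0429, exact permutation), and the QKO EpiLC excess over L2 and MIR did not (0.12, adjusted p = 0.114, exact permutation). With WT replicates 5 to 8 alone, QKO mES families were 1; copies were 2 inside and 19 lower in LBRKO mES, 47 lower in TKO mES, 601 inside in QKO mES, 7 outside, 43 inside and 3 lower in LBRKO EpiLCs, and 327 inside between WT stages. These sums and ratios then missed the threshold, with adjusted p from 0.0514 to 0.129 (exact permutation). Outside sums were 0.65 (TKO mES), 1.52 (QKO mES) and 1.17 (QKO EpiLC), and inside sums 0.62 and 0.63 (QKO). Outside to inside ratios were -0.10 (LBRKO mES), 0.54 and 0.89 (TKO and QKO mES), 0.13 and 0.54 (EpiLC) and -0.25 (WT stages). Ratios over L2 and MIR were 0.25 and 0.38 (mES), 0.19 and 0.12 (EpiLC) and 0.20 (WT stages). All of these tests set 4 against 4 libraries, where the smallest exact p is 0.0286, so a miss by itself does not show a smaller difference. The outside to inside ratios of TKO and QKO mES cells were above their main values of 0.50 and 0.85.

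Without both WT replicates 7, QKO families were 16 and 11, LBRKO mES copies 7 outside and 149 inside, and inside copies 138 in TKO mES, 162 in LBRKO EpiLCs and 38 in TKO EpiLCs. The LBRKO mES outside sum (0.33) and the inside sums of LBRKO mES (0.46), TKO mES (0.37) and the WT stages (0.29) then passed.

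With copies scaled to each other, calls outside, inside and lower were 164, 204 and 189 (QKO mES), 151, 324 and 210 (QKO EpiLC), 11, 16 and 19 (QKO against TKO, mES) and 63, 181 and 74 (EpiLC). Inside and lower calls were 10 and 53 in LBRKO mES and 40 and 51 in TKO mES, and lower calls 15 in LBRKO and 37 in TKO EpiLCs. A filter of 100 reads gave 29 lower copies in TKO and 75 in QKO EpiLCs. Without chromosomes 6, 8, X and Y, copies were 13 inside in LBRKO mES, 12 outside and 44 inside in LBRKO EpiLCs, and 3 and 7 lower for QKO against TKO.

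At least 50 kb from genes or wholly inside, QKO against TKO gave 0.91 and 1.21 outside, 0.52 and 0.73 inside and 0.39 and 0.48 for their ratio, with TKO EpiLCs at 0.16 (adjusted p = 0.0541, exact permutation). QKO against TKO set 4 against 4 libraries, where the smallest exact p is 0.0286, and each difference was larger than in the main test. The excess over L2 and MIR was 0.18 (TKO mES), 0.094 (QKO mES), 0.088 (QKO EpiLC) and, reversed, -0.084 (QKO against TKO, mES), with adjusted p from 0.0982 to 0.454 (exact permutation). The TKO EpiLC outside to inside ratio was 0.10 with per-family ratios and 0.092 without the 10 copies with most reads, which also left the QKO EpiLC excess at 0.081.

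Leaving out 1 library at a time, QKO mES families ranged from 2 (without QKO 3) to 12 (without QKO 1), QKO against TKO EpiLC families from 1 to 2, and the LBRKO EpiLC family median from 0.037 (without replicate 3) to 0.49. Copies inside ranged from 5 (without LBRKO 4) to 42 in LBRKO mES, 49 to 75 in TKO mES, 724 (without QKO 3) to 1189 in QKO mES, 21 (without TKO 1) to 63 and 489 (without TKO 1) to 652 for QKO against TKO in mES cells and EpiLCs, and 33 (without LBRKO 3) to 116 in LBRKO EpiLCs. Copies outside ranged from 11 (without QKO 3) to 23 for QKO against TKO in mES cells and 11 (without LBRKO 3) to 20 in LBRKO EpiLCs. Lower copies ranged from 14 to 23, 17 to 25, 41 to 50 and 2 to 5 in mES cells (LBRKO, TKO, QKO, QKO against TKO) and 3 to 11, 9 to 17, 27 to 42 and 7 to 13 in EpiLCs. The inside sum of QKO against TKO in mES cells ran from 0.42 to 0.59, and the excess over L2 and MIR in EpiLCs from -0.13 (without LBRKO 3, adjusted p = 0.0273, exact permutation) to -0.040 in LBRKO and from 0.091 (without QKO 1, adjusted p = 0.101, exact permutation) to 0.15 in QKO.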
